A study of Mus musculus with 11 samples.

Results

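The genes described here encode the nuclear subunits of the mitochondrial respiratory chain and of the ATP synthase in C2C12 cells, a mouse myoblast line of C3H origin that fuses into myotubes when serum is lowered. They were chosen by symbol alone. A symbol of the expression tables counted if it started with Nduf, Uqcr or Atp5, was one of Sdha to Sdhd, or started with Cox followed by a digit of 4 to 8. This gave 90 of 20368 symbols. By symbol, 38 are of complex I, 4 of complex II, 8 of III, 18 of IV and 15 of the ATP synthase. These 83 are called subunit symbols here, although Cox7a2l among them acts in the assembly of supercomplexes. Another 4 are named as assembly factors of complex I (Ndufaf1 to Ndufaf4). The last 3 symbols, Cox4nb, Atp5s and Atp5sl, share the letters without being subunits, and Cox4nb is a gene of the endoplasmic reticulum membrane complex. Ndufa4 stands with complex I by its symbol, although its protein has since been assigned to complex IV. The cytochrome c1 gene Cyc1, a core subunit of complex III, is not matched by the symbols and is given among the other pathway genes.

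The respiratory chain passes electrons from NADH (complex I) and succinate (complex II) through ubiquinone to complex III, cytochrome c and complex IV, where oxygen is reduced. Complexes I, III and IV pump protons across the inner membrane, and the ATP synthase uses their return to make ATP. Skeletal muscle builds many mitochondria as it matures, and several complex IV subunits have a second gene that is used in heart and skeletal muscle (Cox6a2, Cox7a1 and Cox8b) in place of a broadly used one (Cox6a1, Cox7a2 and Cox8a). The core subunits encoded by mitochondrial DNA were not in the tables (0 of 13) and are not analysed here.

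Expression was measured by sequencing of polyA RNA in 4 libraries, 1 per group, all taken 4 h after the change to differentiation medium with 2% horse serum and an insulin, transferrin and selenium supplement. The DRRi cells received RNAi against the RNA made at the DRR, the distal regulatory region of Myod1, and the GFPi cells received RNAi against GFP. The pHAN_DRR1.2 cells overexpressed DRR RNA, and the pHAN_GFP cells overexpressed GFP. Binding of MyoD and MyoG, transcription factors that drive muscle differentiation, and the enhancer mark H3K4me1 were mapped by ChIP-seq in myotubes (MT, 48 h of differentiation), and MyoD and H3K4me1 also in proliferating myoblasts (MB) kept in 10% fetal bovine serum, with 1 sample for each. Levels are in FPKM, fragments per kilobase of coding sequence scaled to the mapped fragments of a library, summed per symbol. Summed FPKM over all symbols ranged from 383311 to 411626 per library, and the read depth is unknown. Without replicates, no difference below has a replicate check, and no p-value was computed.

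The cells carried myoblast markers. Des (desmin, the muscle intermediate filament) was at 231 FPKM in DRRi, 267 in GFPi, 577 in pHAN_DRR1.2 and 460 in pHAN_GFP. Of 9 myogenic markers 8 passed a mean of 1 FPKM in each comparison. Of the 9 markers of blood, endothelial, epithelial, fat, liver and glial cells in the tables, 0 passed it. Their summed level was 0.171 FPKM in DRRi and 0.306 in GFPi, and 0.161 in pHAN_DRR1.2 against 0.204 in pHAN_GFP, and the liver marker Alb was listed at 0 in all 4 libraries. Myog, the factor of terminal differentiation, was at 2.61 FPKM in DRRi and 10.2 in GFPi, and at 65.8 in pHAN_DRR1.2 against 26.3 in pHAN_GFP. Over the 8 myogenic markers kept the median log2 change was -0.19 in DRRi, with 0 past 1.5-fold upward and 2 downward (Myog and Tnnt1), and 0.37 in pHAN_DRR1.2, with 2 upward (Myog and Tnnt2) and 0 downward. The markers did not all move one way: Myf5 was at 18.4 FPKM in DRRi and 15.1 in GFPi (0.27), Tnnt1 at 36.1 in pHAN_DRR1.2 against 48.6 in pHAN_GFP (-0.42), and Myod1 at 65.6 against 68.9 in the same pair (-0.07). Their part in the values of members was not tested. In bulk RNA, fewer cells of a kind and less RNA per cell cannot be told apart.

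Promoters of 5 members that are named again below are shown first. They are RefSeq sequences of GRCm38.p6, 250 bases before to 50 after the annotated start, in the direction of the gene, and were picked after the values had been seen. Cox8b (chr7:140900397-140900696, minus strand) is the muscle form of subunit VIII of complex IV and Cox8a (chr19:7217567-7217866, minus strand) the broadly used form. Ndufs5 (chr4:123718137-123718436, minus strand) encodes an accessory subunit of complex I. In these promoters and that of Atp5b, capitals mark E-boxes, the core sequence CANNTG bound by MyoD and MyoG.

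Cox8b: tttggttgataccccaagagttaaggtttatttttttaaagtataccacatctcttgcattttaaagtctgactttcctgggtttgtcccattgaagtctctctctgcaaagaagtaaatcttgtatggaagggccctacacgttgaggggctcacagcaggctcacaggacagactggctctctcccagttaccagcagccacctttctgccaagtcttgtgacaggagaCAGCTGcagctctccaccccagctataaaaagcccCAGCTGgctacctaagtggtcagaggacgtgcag

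Cox8a: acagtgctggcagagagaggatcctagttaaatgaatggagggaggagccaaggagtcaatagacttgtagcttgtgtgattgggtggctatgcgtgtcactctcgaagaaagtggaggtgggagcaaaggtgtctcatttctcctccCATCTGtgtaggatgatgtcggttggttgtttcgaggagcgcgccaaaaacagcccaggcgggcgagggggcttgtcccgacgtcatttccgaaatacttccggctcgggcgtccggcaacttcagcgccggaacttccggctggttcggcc

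Ndufs5: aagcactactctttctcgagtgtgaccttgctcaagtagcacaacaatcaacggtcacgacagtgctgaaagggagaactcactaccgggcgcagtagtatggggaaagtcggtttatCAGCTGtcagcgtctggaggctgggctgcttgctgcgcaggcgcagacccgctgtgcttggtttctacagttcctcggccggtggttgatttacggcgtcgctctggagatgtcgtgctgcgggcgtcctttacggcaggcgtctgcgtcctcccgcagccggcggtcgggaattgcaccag

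Cox6a1 (chr5:115348909-115349208, minus strand) is the broadly used form of subunit VIa of complex IV. Capitals mark its match to the NRF1 site, 10 letters that read the same on both strands, searched in exactly this form. NRF1 is a factor that regulates respiratory chain genes. Atp5b (chr10:128083057-128083356, plus strand) encodes the catalytic beta subunit of the ATP synthase and was the most abundant member. Its capitals mark an E-box and 5 CCAAT boxes, 1 of them on the other strand as ATTGG.

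Cox6a1: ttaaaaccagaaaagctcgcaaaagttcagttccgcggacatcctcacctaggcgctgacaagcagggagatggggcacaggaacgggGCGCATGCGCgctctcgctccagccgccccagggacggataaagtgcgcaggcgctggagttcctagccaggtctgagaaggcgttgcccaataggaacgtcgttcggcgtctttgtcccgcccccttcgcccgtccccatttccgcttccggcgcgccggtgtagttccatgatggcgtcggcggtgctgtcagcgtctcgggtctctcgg

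Atp5b: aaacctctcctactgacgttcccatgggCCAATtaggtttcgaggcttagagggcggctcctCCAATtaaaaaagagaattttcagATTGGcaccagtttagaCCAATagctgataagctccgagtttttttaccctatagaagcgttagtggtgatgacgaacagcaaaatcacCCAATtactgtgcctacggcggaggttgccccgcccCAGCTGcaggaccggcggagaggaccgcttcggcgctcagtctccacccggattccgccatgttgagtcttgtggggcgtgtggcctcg

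The E-box form CAGCTG, a palindrome and 1 of the forms of CANNTG, occurred at 2 places in the Cox8b promoter, at -19 and 16 from the start counted as 0. It lay at -132 in the Ndufs5 promoter and at -39 in that of Atp5b. A promoter was matched for 74 members, and 6 of them held CAGCTG (8.11%), against 17.1% of the 8487 promoters of all symbols kept in the expression filter and 17.9% of all 16021 promoters. These 6 were Atp5b, Cox8b, Ndufa8, Ndufb10, Ndufs5 and Ndufv2. Any CANNTG occurred in 71.6% of member promoters, against 65.5% of those kept and 71.7% of all, and CAGGTG or its complement CACCTG in 18.9%, against 19.2% and 22.1%. The full NRF1 palindrome also occurred in 6 member promoters (8.11%), those of Atp5g2, Atp5k, Cox6a1, Ndufa11, Ndufaf4 and Uqcrc1, against 2.51% of those kept and 1.56% of all. CCAAT boxes occurred in 45.9% of member promoters, against 43.5% and 42.5%, and the ETS core CCGGAAG in 23.0%, against 22.1% and 13.6%, each searched on both strands. These are matches of letters in 300 bases and say nothing of binding.

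Most members were among the abundant transcripts of these cells. Those with a mean of 1 FPKM or more numbered 83 of the 10577 symbols kept for DRRi and GFPi, and 84 of the 10699 kept for pHAN_DRR1.2 and pHAN_GFP. The median member stood at 102 FPKM in DRRi and 114 in GFPi, while the median of all symbols kept was 13.1 in DRRi and 12.9 in GFPi. Atp5b was at 953 FPKM in DRRi, 1035 in GFPi, 732 in pHAN_DRR1.2 and 685 in pHAN_GFP, at rank 37 of all symbols in GFPi. Atp5g3, 1 of 3 genes for the membrane ring subunit c, followed at 631, 834, 535 and 528 FPKM in the same libraries, and Ndufa4 at 394, 579, 379 and 371. In complex IV, Cox6a1 and Cox4i1 had the highest means and Cox7a1 and Cox8b the lowest among members kept. In complex III the hinge protein gene Uqcrh led, and in complex II the membrane anchor gene Sdhd. The lowest kept subunit of complex I was Ndufa11, at 9.99 FPKM in DRRi, 9.67 in GFPi, 11.3 in pHAN_DRR1.2 and 9.20 in pHAN_GFP. Assembly factors were at lower levels than most subunits, with Ndufaf3 at 5.50, 5.22, 6.63 and 6.40 FPKM.

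The DRRi library was set against GFPi to see how these genes stood when the DRR RNA was targeted. Members were on balance slightly lower in DRRi than in GFPi, and almost all differences were small. Medians were below that of all members in complex IV, complex II, the ATP synthase and the assembly factors Ndufaf1 to Ndufaf4. No difference between complexes was tested. Changes are log2 of the FPKM ratio with a pseudocount of 1. The median over the 83 members kept was -0.06, against 0.02 over all genes kept, and 29 members were above 0 (34.9%), where the share over all genes was 53.5%. Their summed FPKM was 12152 in DRRi against 13423 in GFPi, a ratio of 0.905, which is 2.95% of all FPKM in DRRi and 3.35% in GFPi. A difference of 1.5-fold or more was reached upward by 1 member, where the share over all genes was 4.66%, and downward by 2 members, where it was 3.50%. At 2-fold the counts were 0 in both directions, against shares of 0.898% higher and 0.804% lower over all genes.

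By complex, the median log2 change in DRRi was -0.02 in complex I, -0.17 in complex II, 0.02 in complex III, -0.19 in complex IV and -0.17 in the ATP synthase. Above 0 were 16 of 37 kept genes of complex I, 0 of 4 of complex II, 4 of 8 of complex III, 2 of 12 of complex IV and 4 of 15 of the ATP synthase. The largest sum was that of the ATP synthase, 4715 FPKM in DRRi and 5368 in GFPi. Complex I summed to 3408 against 3587 FPKM in DRRi and GFPi, complex IV to 2343 against 2604, complex III to 1189 against 1296 and complex II to 440 against 498. The summed level was therefore below GFPi in all 5 complexes, at ratios of 0.878 to 0.950. The 4 assembly factors Ndufaf1 to Ndufaf4 had the lowest median, -0.30, with 1 above 0. They summed to 39.9 FPKM in DRRi against 53.9 in GFPi, a ratio of 0.741. This does not hold for complex I assembly factors outside the members. There Ecsit was at 0.47, Nubpl at 0.25, Foxred1 at 0.12, Tmem126b at 0.06 and Acad9 at 0.03.

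**Figure D1:**
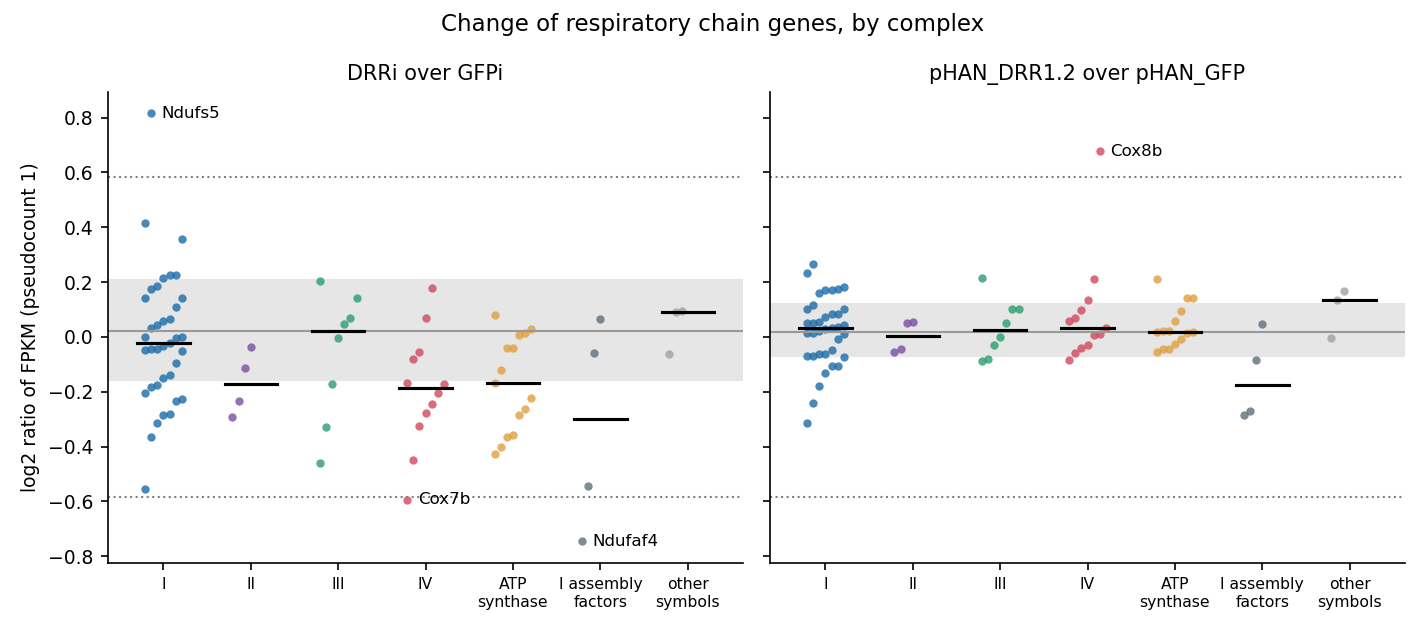
Each point is a member kept at a mean of 1 FPKM or more, placed by complex, with its log2 ratio of FPKM (pseudocount 1) on the vertical axis, for DRRi over GFPi at the left and pHAN_DRR1.2 over pHAN_GFP at the right. Black bars are medians of a complex, the grey line and band are the median and the interquartile range of all genes kept, and dotted lines mark 1.5-fold. Points of complex IV and the ATP synthase lie mostly below the grey line in DRRi, and the points at the right are closer together, with an SD of 0.11 against 0.24.

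The members past 1.5-fold in DRRi were Ndufs5, Ndufaf4 and Cox7b. Ndufs5 (chromosome 4, 123389952 to 123395429, mm9) was at 65.6 FPKM in DRRi and 36.9 in GFPi (0.82). In the other experiment it was at 29.4 FPKM in pHAN_DRR1.2 against 36.7 in pHAN_GFP (-0.31), so both GFP libraries were alike, in tables normalized separately, and the DRRi library stood above them. RefSeq lists a pseudogene named after Ndufs5, and how the authors counted reads shared with it is not given in the sources used here. Ndufaf4 (chromosome 4, 24825229 to 24832148), an assembly factor of complex I, was at 8.39 FPKM in DRRi and 14.8 in GFPi (-0.75), and at 10.7 in pHAN_DRR1.2 against 13.1 in pHAN_GFP (-0.27). Cox7b (chromosome X, 103211038 to 103217789), a small subunit of complex IV, was at 79.4 FPKM in DRRi and 120 in GFPi (-0.59). It was at 106 FPKM in pHAN_DRR1.2 against 109 in pHAN_GFP (-0.04), levels between those of DRRi and GFPi, although the tables were normalized separately.

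In the authors' deposited table for DRRi and GFPi, 0 members had a q-value under 0.05, against 1.22% of all genes kept. The lowest q-value of a member in the authors' deposited table was 0.332, for Ndufaf4. The authors' deposited table gave 3 members an unadjusted p-value under 0.05, against 7.75% of all genes kept, namely Ndufaf4 (0.0109), Cox7b (0.0405) and Ndufa4 (0.0486). Ndufs5 had an unadjusted p-value of 0.0557 in the authors' deposited table. These p-values compare single libraries.

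The other genes at the ends of their complexes were within 1.5-fold. Ndufa4 (chromosome 6, 11850372 to 11857446), the lowest of complex I by symbol, was at 394 FPKM in DRRi and 579 in GFPi (-0.56). Uqcrh, the lowest of complex III, was at 302 against 416 FPKM in DRRi and GFPi (-0.46), and Atp5l, subunit g and the lowest of the ATP synthase, at 303 against 407 (-0.43). RefSeq lists 2 pseudogenes named after each of Uqcrh and Atp5l. Sdhd was at 134 FPKM in DRRi and 165 in GFPi (-0.29), while Sdhb, the iron-sulfur subunit of complex II, was at 120 against 123 (-0.04). Among the highest were Uqcrq, a small subunit of complex III, at 92.9 FPKM in DRRi and 80.5 in GFPi (0.20), Cox6b1 of complex IV at 268 against 237 (0.18) and Atp5g2, the second gene of subunit c, at 419 against 396 (0.08). The 3 genes of subunit c thus stood on different sides of GFPi in DRRi, with Atp5g3 at -0.40, Atp5g1 at 0.01 and Atp5g2 at 0.08. They encode the same mature protein and differ in their import sequences.

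With DRR RNA overexpressed, the members were nearly level between pHAN_DRR1.2 and pHAN_GFP. Their median log2 change was 0.02 over 84 members, as over all genes kept, and 53 were above 0 (63.1%), where the share over all genes was 55.6%. Summed FPKM was 11011 in pHAN_DRR1.2 against 10798 in pHAN_GFP, or 2.80% of all FPKM against 2.82%. The medians were 0.03 in complexes I, III and IV, 0.00 in complex II and 0.02 in the ATP synthase, and summed levels differed by ratios of 1.00 to 1.03 in these 5 complexes. The assembly factors Ndufaf1 to Ndufaf4 had a median of -0.18, with Ndufaf1 at 9.32 FPKM in pHAN_DRR1.2 against 11.6 in pHAN_GFP (-0.29).

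Of the 84 members, 1 (Cox8b) passed 1.5-fold upward in pHAN_DRR1.2, where the share over all genes was 1.38%, and 0 passed it downward, where it was 0.654%. At 2-fold the counts were 0 in both directions, against 0.318% higher and 0.0841% lower over all genes. Cox8b (chromosome 7, 148084840 to 148086345, mm9) was at 1.69 FPKM in pHAN_DRR1.2 against 0.686 in pHAN_GFP, a log2 change of 0.68 with the pseudocount. In the other experiment it was listed at 0 in DRRi and at 0.177 FPKM in GFPi, below the filter. At a level this near the filter the change depends on the pseudocount, and it was 1.19 with a pseudocount of 0.1. The authors' deposited table gave 0 members a q-value under 0.05 in this comparison, against 1.57% of all genes kept, and 0 members an unadjusted p-value under 0.05, against 5.90%.

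The other ends in this experiment were small changes. Ndufa11 was highest in complex I at 0.26 and Ndufs5 lowest at -0.31. Atp5d, the delta subunit of the ATP synthase stalk, was at 137 FPKM in pHAN_DRR1.2 against 118 in pHAN_GFP (0.21), and Atp5a1, the alpha subunit, at 283 against 294 (-0.05). Uqcrq was at 116 against 99.9 FPKM (0.21) and Uqcrb, a ubiquinone-binding subunit of complex III, at 186 against 198 (-0.09). Cox4i1 was at 346 FPKM in pHAN_DRR1.2 against 315 in pHAN_GFP (0.13), and Cox8a at 272 against 289 (-0.08). In complex II, Sdhc was at 93.3 against 89.7 FPKM (0.06) and the flavoprotein gene Sdha at 82.5 against 85.8 (-0.06).

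The experiments have no library in common. Over the 83 members kept in both, Spearman's rho between the log2 changes was 0.34 and Pearson's r 0.19, given as a description across genes that share libraries and are not replicates. In both experiments 24 members were above 0 and 26 below. Another 28 were below 0 in DRRi and above 0 in pHAN_DRR1.2, and 5 were above 0 in DRRi and below in pHAN_DRR1.2. These are signs alone, with no threshold on size. Neither the counts nor the correlations were computed over all genes, so they cannot be read as particular to the members.

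Muscle forms of complex IV subunits were scarce in all 4 libraries. Cox6a2 was at 0.499 FPKM in DRRi, 0.188 in GFPi, 0.718 in pHAN_DRR1.2 and 0.727 in pHAN_GFP, while its broadly used partner Cox6a1 was at 327, 397, 335 and 319. Cox7a1 was at 1.39, 2.26, 2.50 and 2.02 FPKM in the same libraries, and its partner Cox7a2 at 159, 179, 125 and 130. Cox8a was at 231, 260, 272 and 289 FPKM, while its muscle partner Cox8b was at 0, 0.177, 1.69 and 0.686. The muscle and broad forms did not overlap in level in any of the 4 libraries. Cox7a1 differed between DRRi and GFPi by -0.45 on the log2 scale and Cox7a2 by -0.17. Cox7a2l, which is related to the Cox7a subunits and acts in the assembly of supercomplexes, was at 125, 130, 117 and 109 FPKM.

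Isoforms typical of other tissues were near 0. Cox4i2, a form known from lung and low oxygen, stayed at or under 0.105 FPKM, while Cox4i1 was at 329 FPKM in DRRi and 348 in GFPi. Ndufa4l2, a gene induced by low oxygen, was at 0.263 FPKM in DRRi, 0.0377 in GFPi, 0.108 in pHAN_DRR1.2 and 0.0365 in pHAN_GFP. Cox6b2 and Cox7b2, known from testis, were at or under 0.551 and 0.0839 FPKM. Cox8c, also known from testis, was listed at 0 in all 4 libraries. These 5 genes, Cox4i2, Ndufa4l2, Cox6b2, Cox7b2 and Cox8c, were below the filter in both comparisons.

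**Figure D2:**
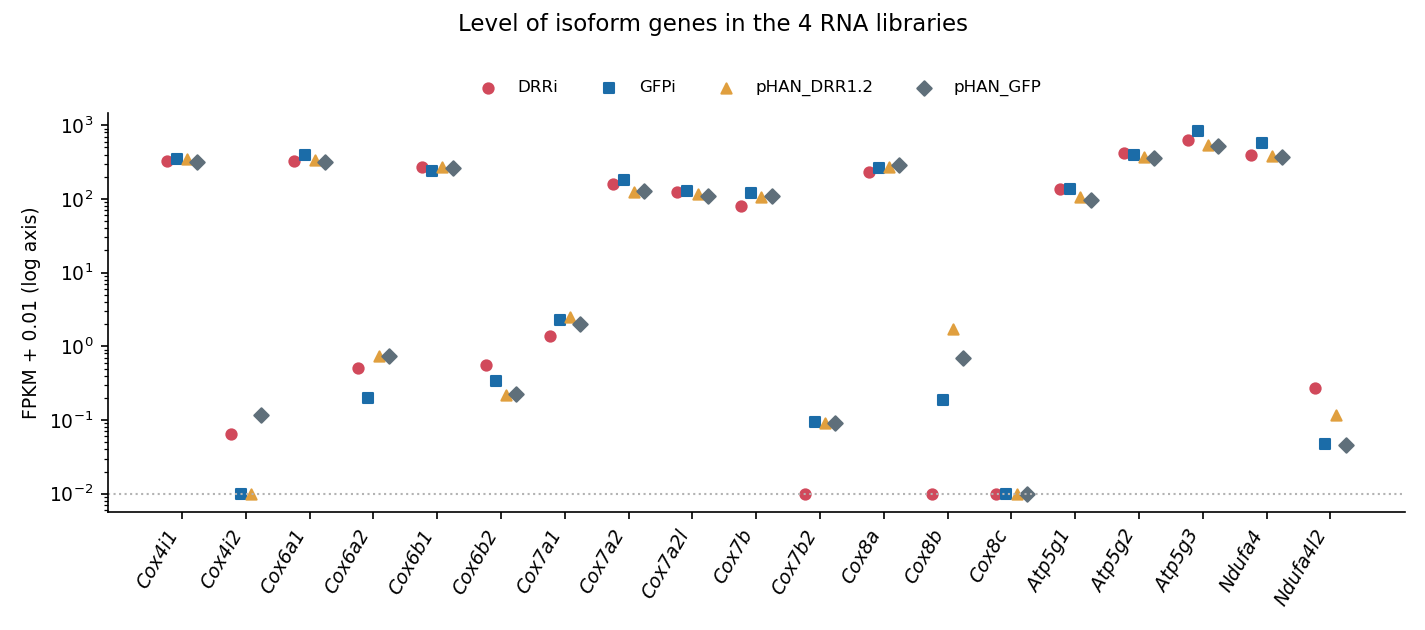
Level of 19 isoform genes in DRRi, GFPi, pHAN_DRR1.2 and pHAN_GFP, in FPKM plus 0.01 on a log axis, with 1 point per library. The dotted line marks genes listed at 0. Broadly used forms lie at 79.4 FPKM (Cox7b in DRRi) or more in each library, and the muscle forms Cox6a2, Cox7a1 and Cox8b lie under 3 FPKM.

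Other genes of oxidative metabolism were described from lists chosen by function. Of 16 genes of the citric acid cycle and pyruvate dehydrogenase, 5 were above 0 in DRRi, with a median of -0.14 and 0 past 1.5-fold. Of 7 kept genes of cytochrome c, cytochrome c1, electron transfer flavoproteins and ubiquinone synthesis, 0 were above 0, with a median of -0.24. Cycs, the cytochrome c that carries electrons to complex IV, was at 73.4 FPKM in DRRi and 98.0 in GFPi (-0.41), and Cyc1 at 184 against 195 (-0.08). The 76 proteins of the mitochondrial ribosome had a median of 0.02. The 21 kept assembly factors of the complexes that are not members had one of 0.03. Both lists had 0 past 1.5-fold in either direction. In pHAN_DRR1.2 the same lists had medians of -0.02 for the cycle, -0.01 for the carriers, 0.03 for the ribosome and -0.03 for the assembly factors, with 0 genes past 1.5-fold.

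Regulators of mitochondrial genes had a median of 0.02 in DRRi and of 0.08 in pHAN_DRR1.2 over the 12 kept. Nrf1 was at 17.0 FPKM in DRRi and 15.4 in GFPi (0.14), and at 12.7 in pHAN_DRR1.2 against 11.5 in pHAN_GFP (0.13). Tfam, which packages mitochondrial DNA and is needed for its transcription, was at 13.9 against 15.1 FPKM in DRRi and GFPi (-0.11), and at 12.9 against 12.5 in pHAN_DRR1.2 and pHAN_GFP (0.04). Ppargc1a, the coactivator that drives mitochondrial growth in muscle, was at or under 0.0528 FPKM in every library. Of the 12 regulators kept, 1 passed 1.5-fold in DRRi, Polg2, the accessory subunit of the mitochondrial DNA polymerase, at 2.72 FPKM against 1.36 in GFPi (0.65). Its q-value in the authors' deposited table was 1.00, and in the other experiment it was at 0.747 FPKM in pHAN_DRR1.2 against 1.51 in pHAN_GFP (-0.52).

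MyoD and MyoG peaks near these genes were common in myotubes and less so in myoblasts. How members stood against other genes depended on the genes they were set against, and the differences were not tested. In myotubes 56 of 90 members had a MyoD peak within 10 kb of the locus (62.2%, exact 95% Clopper-Pearson interval 51.4 to 72.2), where the share over all symbols was 56.0%. In myoblasts it was 24 members (26.7%, 17.9 to 37.0), against 34.3%. MyoG peaks in myotubes were near 58 members (64.4%, 53.7 to 74.3), against 52.9%. Among the 83 members kept in the expression filter of DRRi and GFPi, 52 had a MyoD peak of myotubes (62.7%, 51.3 to 73.0), against 73.9% of all symbols kept. A MyoD peak of myoblasts was near 22 of them (26.5%, 17.4 to 37.3), against 45.0%. A MyoG peak was near 54 (65.1%, 53.8 to 75.2), an interval that includes the 69.9% of all symbols kept. The myoblast list is the shorter one, with 18141 MyoD peaks against 39700 in myotubes. The intervals cover counting error only. Member loci are short, with a median of 7422.5 bp against 24667 bp for all symbols kept, so their windows are smaller.

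Counts by distance from the 5′ end do not depend on the length of the locus. For 70 members with a locus of their own and a strand in RefSeq, a MyoD peak of myotubes lay within 1 kb of the 5′ end in 22, a MyoD peak of myoblasts in 4 and a MyoG peak in 23, where the shares over all such symbols were 20.2%, 7.62% and 15.1%. Among the 67 of them that were kept, the MyoG count was 22 (32.8%, 21.8 to 45.4), against 24.7% of all symbols kept. The MyoD counts were 21 (31.3%) in myotubes and 4 (5.97%, 1.65 to 14.6) in myoblasts, against 33.3% and 12.4%. The intervals of the MyoG share and of the myoblast MyoD share include the share over all symbols kept, as does that of the myotube MyoD share (20.6 to 43.8).

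**Figure D3:**
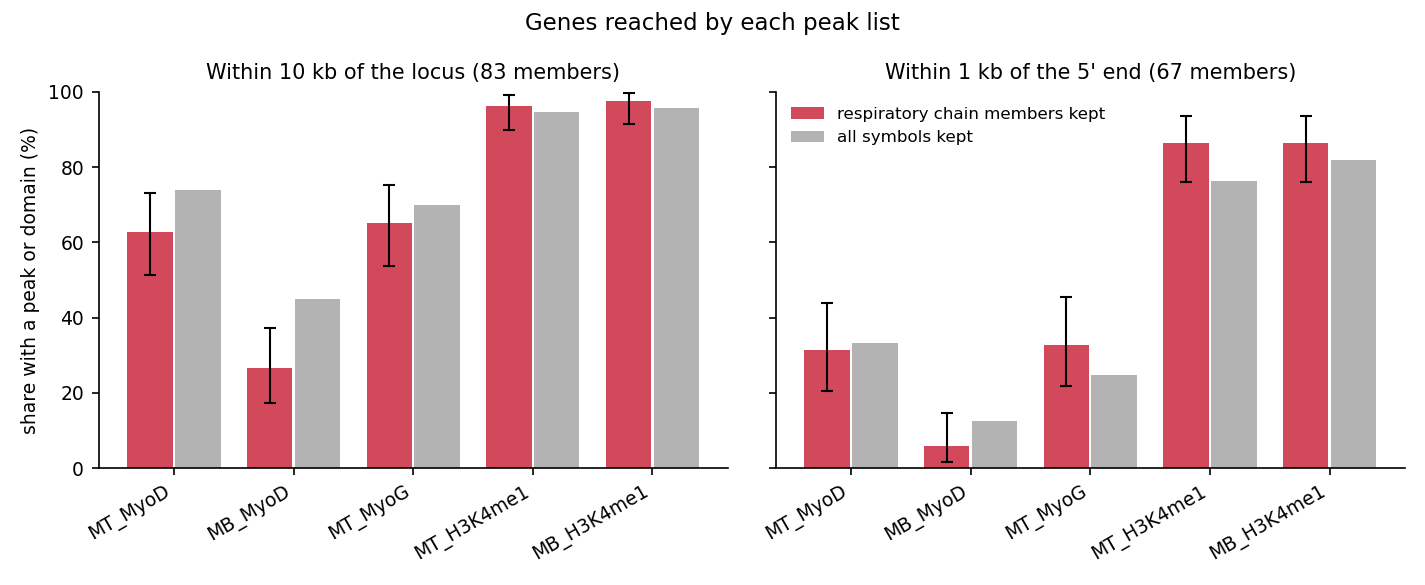
Share of genes in percent with a peak or H3K4me1 domain of each of the 5 lists, within 10 kb of the locus (left) and within 1 kb of the 5′ end (right). Red bars are the members kept in the expression filter of DRRi and GFPi, with exact 95% intervals, and grey bars are all symbols kept. The red bar is lower than the grey one for MyoD at both stages in both panels, and at the 5′ end both intervals include the grey share.

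By complex, MyoD peaks of myotubes within 10 kb reached 27 of 38 genes of complex I, 1 of 4 of complex II, 4 of 8 of complex III, 8 of 18 of complex IV and 12 of 15 of the ATP synthase. In myoblasts the ATP synthase had 2 of 15 and complex I 12 of 38. The shares over all symbols were 56.0% in myotubes and 34.3% in myoblasts, and over symbols kept 73.9% and 45.0%. In DRRi and GFPi 37 of the 38 genes of complex I and 15 of 15 of the ATP synthase were kept. For them the shares over symbols kept are the closer comparison. Of all 90 members, 23 had a MyoD peak at both stages, 33 in myotubes alone, 1 (Uqcrc1, a core protein of complex III) in myoblasts alone and 33 at neither. The peak near Uqcrc1 (score 71.87) lay 3257 bp from its locus and nearer to Col7a1, at 120 bp. In myotubes 50 members had both a MyoD and a MyoG peak. None in any of the 3 lists was found for 25 members, among them Cox8a, Cox6b1, Ndufaf4, Sdha, Sdhc, Sdhd and Uqcrh. The share over all symbols was not computed for these combinations, so they cannot be read as particular to the members. The myotube MyoD list is also the longer one. Of the 3 members past 1.5-fold in DRRi, Ndufs5 had peaks in all 3 lists at its 5′ end, Cox7b had them 3770 bp or more from its locus and nearer to Atp7a, and Ndufaf4 had none.

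The peaks near members had lower median scores than their whole lists. The 104 MyoD peaks of myotubes within 10 kb had a median peak score of 139, against 175 in the whole list. The 28 MyoD peaks of myoblasts had a median of 116, against 162, and the 96 MyoG peaks 98.2, against 136. Of the 28 myoblast peaks 27 overlapped a MyoD peak of myotubes (96.4%), against 73.9% of the whole myoblast list. Of the 104 myotube peaks 27 overlapped a MyoD peak of myoblasts (26.0%), against 34.1% of the list, and 70 overlapped a MyoG peak (67.3%), against 66.9%. The member was the nearest locus for 58 of the 104, with ties counted as nearest. Such ties are peaks that also overlap another gene or lie equally near to it, as for Cox6a2 with Itgad.

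**Figure D4:**
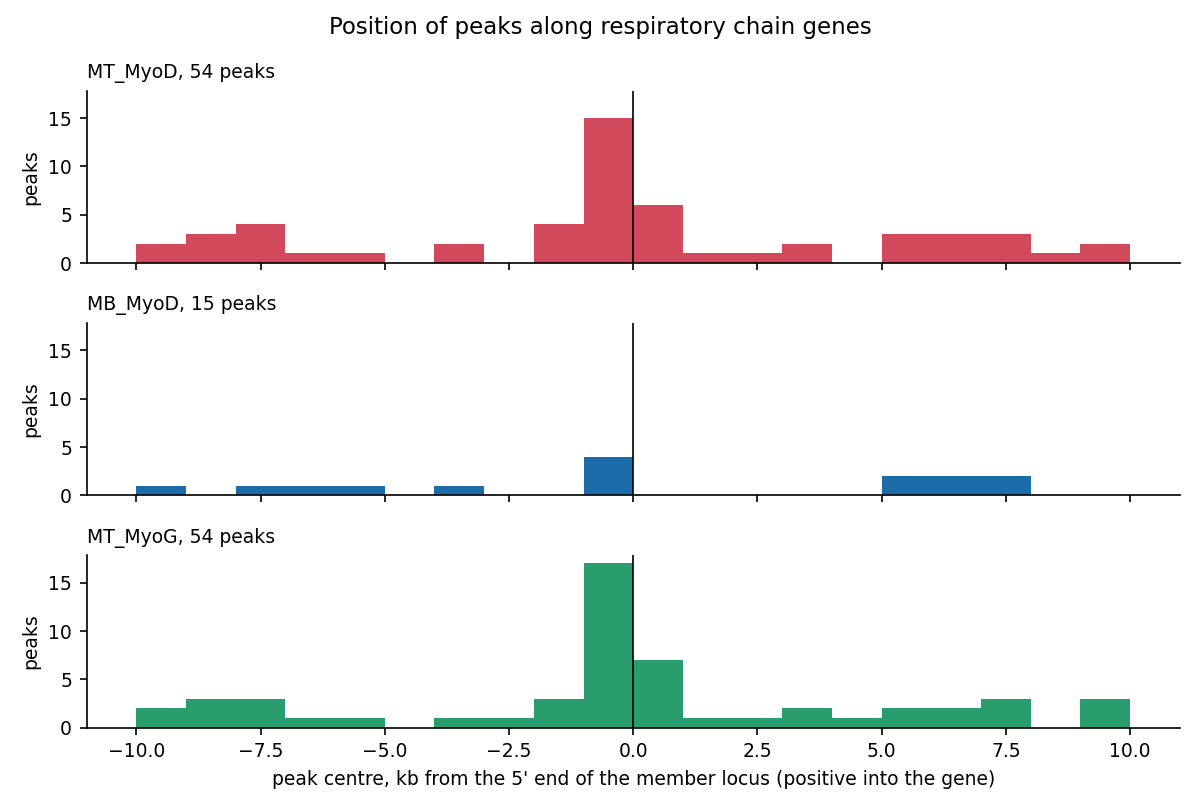
Number of MyoD or MyoG peaks by the distance of their centre from the 5′ end of the member locus, in kb, in bins of 1 kb with positive values into the gene. The lists hold 54 MyoD peaks in myotubes, 15 MyoD peaks in myoblasts and 54 MyoG peaks within 10 kb of such an end, and 21, 4 and 24 of them have their centre within 1 kb of it.

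Peaks covered the annotated 5′ end of 18 members for MyoD in myotubes, 4 for MyoD in myoblasts and 15 for MyoG. The share over all symbols was not computed for these counts. At Cox8b a MyoD peak of myotubes (chromosome 7, 148085885 to 148086716, mm9, peak score 619.38) and a MyoG peak (148086158 to 148086708, 430.24) covered the end, and the nearest MyoD peak of myoblasts lay 38296 bp away. These scores were above those of 81.9% of the MyoD list and 84.2% of the MyoG list. This is the gene whose promoter, printed above, holds CAGCTG at 2 places near the start, and the muscle form that passed 1.5-fold in pHAN_DRR1.2. Whether these are related was not tested. Among members with such a MyoD peak 3 of 18 held CAGCTG in the promoter (Cox8b, Ndufa8 and Ndufs5), against 3 of 52 without it, counts too small to read as a difference. Cox7a1 had a weak MyoD peak over its end (63.53) and no MyoG peak within 10 kb. The 2 MyoD peaks of the Cox6a2 locus, 279.61 and 433.94, fall in an interval that the tables give jointly to Itgad, so they cannot be assigned to Cox6a2. For Cox8a no MyoD or MyoG peak lay within 10 kb.

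Ndufs5 carried MyoD at both stages, with a score of 355.15 in myotubes and 65.03 in myoblasts, and MyoG at 256.3, all over the 5′ end that its CAGCTG at -132 lies before. Ndufa4 had MyoD over its end at 792.66 in myotubes and 318.82 in myoblasts, and MyoG 226 bp away at 234.58. The level of Ndufa4 was 394 FPKM in DRRi against 579 in GFPi, and that of Ndufs5 65.6 against 36.9. The peaks are of myoblasts and of myotubes at 48 h, and the RNA is from 4 h. A relation between peaks and levels was not tested. Ndufaf3 had MyoD over its end at 1373.32 in myotubes and 291.3 in myoblasts and MyoG at 311.33, and its expression was 5.50 FPKM in DRRi and 5.22 in GFPi. Ndufa8, an accessory subunit of complex I, had MyoD (818.74) and MyoG (416.98) in myotubes over its end, and both peaks also overlap the neighbouring gene Morn5. Ndufs7, a core subunit of complex I, had the lowest-scoring MyoD peak of myoblasts over an end, at 62.3.

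Inside genes, Ndufs4, another complex I subunit with a long locus, had MyoD peaks of 328.42 in myotubes and 117.63 in myoblasts, and Ndufa9 had MyoG at 271.8. Atp5g2 had MyoD over its end at 314.29 and Atp5g1 at 80.63, while the peak of Atp5g3 (97.51) had its centre 2568 bp into the gene. The highest score within 1 kb of a member locus in myotubes was inside Atp5sl, at 1638.2 for MyoD and 561.86 for MyoG, with 217.53 for MyoD in myoblasts. Cox4nb had MyoD at 275.65 in myotubes and 137.64 in myoblasts, and MyoG at 177.08. Cox4i2, at or under 0.105 FPKM in these libraries, had a MyoD peak within 1 kb at 848.29 in myotubes and 253.17 in myoblasts. Ndufa4l2, at a locus given jointly to Shmt2, had a MyoD peak of 765.3 in myotubes 1069 bp away and one of 231.29 in myoblasts 1547 bp away. The MyoG peak at Ndufb9 (168.03) also overlaps Rnf139, and the MyoD peak of myoblasts at Ndufa2 (100.48) also overlaps Tmco6. Cox4i1 and Cox6a1 had MyoD and MyoG peaks 118 bp to 6835 bp from the locus, the nearest of them overlapping Cox4nb, and Atp5b a MyoD peak 32 bp before its locus at 65.32.

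H3K4me1 domains were near almost all members at both stages. A domain lay within 10 kb of 85 members in myotubes, where the share over all symbols was 72.0%, and of 86 in myoblasts, where it was 73.6%. Among the members kept these were 80 and 81 of 83, against 94.6% and 95.8% of all symbols kept. Within 1 kb of the 5′ end, 59 of 70 members had a domain in myotubes and 58 in myoblasts, where the shares over all such symbols were 48.3% and 51.4%. Among the 67 kept it was 58 at either stage (86.6%, 76.0 to 93.7), against 76.4% and 82.0%. Domains were present at both stages for 83 members, in myoblasts alone for Cox7c, Ndufaf1 and Ndufb11, in myotubes alone for Ndufa3 and Ndufs5, and at neither for Cox7b2 and Cox8c. For these combinations the share over all symbols was not computed. The median share of the window covered was 20.4% in myotubes against 17.7% in myoblasts, with 43 members more covered in myotubes, 42 less and 5 equal. The median difference within a member was 0.0 percentage points. Cover was not computed over all symbols. The median of the highest fold over control near a member was 3.57 in myotubes against 2.77 in myoblasts. The medians over single domains of the whole lists were 2.70 and 2.32. The member value is a maximum over the domains of a window, so it cannot be set against the list value.

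Cox8b had more of this mark in myotubes. There 2 domains covered 39.1% of its window and 1 of them overlapped the locus, with a highest fold of 3.52. In myoblasts 1 domain covered 6.51% without touching the locus, at a fold of 1.51. The window of its partner Cox8a was covered to 32.7% in myotubes and 33.6% in myoblasts, and that of Cox7a1 to 10.3% and 15.8%. Of the 104 MyoD peaks of myotubes near members, 78 lay in a myotube domain (75.0%), against 85.0% of the whole list. The MyoD and MyoG peaks at the end of Cox8b were among those in a myotube domain, and they lay in none of myoblasts.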

How the data were processed

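Of 11 samples, 1 per group, 9 were used. The other 2, ribosome-depleted RNA, are not analysed here. The authors deposited 2 tables of FPKM per coding sequence, with a p-value and a q-value each, per the file headers. Tables and peaks are on mm9 and TopHat is named, per the submitters' processing notes. Each table belongs to exactly 2 samples by the labels, so the condition that a table calls by a name of its own was taken as DRRi or pHAN_DRR1.2. MyoD and MyoG peaks have a score from the authors' caller, as deposited, whose definition is not given in the sources used here. H3K4me1 domains carry a count of ChIP reads and of control reads and a fold, as deposited. The tool SICER is listed in the submitters' processing notes.

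FPKM was summed per symbol, kept at a mean of 1 or more, and compared as log2 with a pseudocount of 1, which understates changes of low genes. Each table was normalized on its own. Peaks were assigned within 10 kb of a locus (overlap of 1 bp), in Python 3.11.15 with pandas 2.3.3, numpy 2.4.6 and SciPy 1.17.1. Steps were tested on simulated data. RefSeq gave strand, promoters and pseudogenes. All 90 members matched, 4 under another symbol. Members and lists were chosen with earlier results of these data known. Genes were named if they were at the ends of their complex by change (mean of 5 FPKM or more) or by level, past 1.5-fold, isoform genes, or, up to 10 per list, had the highest scores within 1 kb. Alternatives were the pseudocount, the filter, the most abundant coding sequence, centring, the window and the upper part of each peak list. A minimum mean of 50 FPKM, unshared loci and 5′ ends were added after seeing the data.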

Additional observations from a re-analysis of the deposited data

How the results depend on the processing

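No paired analysis was possible because each group held 1 library and no result comes from a test. No median of members changed sign in the alternatives run. The median log2 change of members in DRRi was -0.057 as reported, against 0.022 over all genes. It was -0.054 against 0.014 at a mean of 5 FPKM or more, and -0.050 against 0 with no filter. With the most abundant coding sequence of each symbol it was -0.051 against 0.022, and after centring on all genes -0.079 against 0. At a mean of 50 FPKM or more (added after seeing the data) it was -0.088 against -0.0083. There 1 member was 1.5-fold or more lower, where the share over all genes was 3.94%. In pHAN_DRR1.2 the centred median was 0.0023. At a minimum mean of 5 or of 50 FPKM 0 members were 1.5-fold higher, since Cox8b lies below both. The shares over all genes were 1.09% and 0.855%. For MyoD in myoblasts, 9 members had a peak within 1 kb of the locus (25.0% of all symbols), 54 within 50 kb (57.9%), 9 when peaks under the list's median score were left out, and 4 within 1 kb of the 5′ end. For MyoD in myotubes the higher-scoring peaks gave 33 and the 5′ end 22, and for MyoG 30 and 23. The share over all symbols was not computed for the higher-scoring peaks of any list. The 5′ end counts cover 70 members. The remaining 44 values were within 1.5 times the count reported or equal at 2 decimals. Among them were 39 members for MyoD and for MyoG in myotubes at 1 kb (44.3% and 40.6% of all symbols). At 50 kb these were 77 and 78 (74.8% and 72.5%). The upper part of the H3K4me1 lists of myoblasts and myotubes gave 59 and 74. With a pseudocount of 0.1, 3 members (with Cox7a1) were 1.5-fold lower in DRRi, where the share over all genes was 4.84%. The order of members against all symbols turned with the window: 43.3% against 44.3% at 1 kb for MyoD in myotubes (62.2% against 56.0% at 10 kb), and 54 of 90 members against 57.9% at 50 kb for MyoD in myoblasts (24 of 90 against 34.3% at 10 kb). Among symbols kept the members stayed below for MyoD at each of these windows. In myotubes these were 42.2% against 61.1% at 1 kb, 62.7% against 73.9% at 10 kb and 88.0% against 91.2% at 50 kb. In myoblasts they were 9.64% against 34.2%, 26.5% against 45.0% and 61.4% against 71.2% at the same windows. Among symbols kept MyoG turned from below at 10 kb (65.1% against 69.9%) to above at the 5′ end (32.8% against 24.7%). With 1 library per group and unknown read depth, differences of low genes such as Cox8b and Cox7a1 cannot be set against counting error.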
